A study of Mus musculus with 24 samples.

Results

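The livers of mice lacking GPR120 were compared between high-fat diet (HFD) and normal diet (ND), with 3 knockout (KO) mice on each diet. These 6 arrays are part of a series of 24 Affymetrix mouse arrays of epididymal adipose tissue and liver from 12 mice, and were chosen by their sample titles (Liver GPR120KO HFD and Liver GPR120KO ND). The other 6 liver arrays came from wild-type (WT) mice, 3 on each diet, and entered the same model. All mice had a mixed 129/Sv and C57BL/6 background, and each array held total RNA of 1 mouse. The labels name the diets but give no composition, length of feeding, age, sex, feeding state or hour of collection, so these cannot be told apart from diet. Values below are listed in the order of mice 427, 428 and 429 for KO HFD, 718, 719 and 720 for KO ND, 546, 547 and 560 for WT HFD, and 686, 687 and 690 for WT ND. They are MAS5 signals, a linear fluorescence intensity without units that the authors had scaled to the same trimmed mean on every array.

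GPR120, encoded by Ffar4, is a G protein-coupled receptor for long-chain fatty acids that is found mainly in adipose tissue, gut and macrophages. In the liver, dietary fat and carbohydrate act on transcription through SREBP-1c and SREBP-2, which drive fatty acid and cholesterol synthesis, and through PPARα, which drives fatty acid oxidation. Hepatocytes make up most of the tissue, and its resident macrophages (Kupffer cells), stellate cells and endothelium respond to lipid loading with inflammatory and matrix genes.

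Ffar4 was read by 1 probe set, whose mean signal in liver lay below the level set for testing, that of the median probe set (12.95). It was 18.3, 13.5 and 16 in KO HFD liver, 36.8, 23.1 and 21.5 in KO ND liver, 0.55, 1.19 and 1.63 in WT HFD liver and 1.07, 17.3 and 2.27 in WT ND liver. The liver signal was thus not lower in the KO mice, and the KO ND arrays all lay above the KO HFD arrays. In adipose tissue of the same mice the signal ranged from 23.1 to 35.7 in KO and from 58.3 to 171 in WT, with no overlap between genotypes. The sources used here do not say which stretch of the transcript the deletion removes, and the liver values therefore do not check the genotype labels.

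The 6 KO liver arrays were alike in depth and quality measures within a diet. Median signals ranged from 13.4 to 15.9. Spearman correlations over the 11125 genes tested were 0.976 to 0.982 between arrays of one KO group and 0.950 to 0.957 between diets. The ratio of 3′ to 5′ control signal for Actb, a measure of RNA integrity and labelling, was 3.23 to 3.28 on HFD and 2.36 to 2.53 on ND in KO liver, and 3.98 to 4.26 and 2.16 to 2.37 in WT liver. For Gapdh it was 0.925 to 0.953 on HFD and 0.760 to 0.796 on ND in KO liver. These ratios separated the diets completely, and their part in the results was not tested. All 20 measured hepatocyte markers passed the filter on low signal, and their summed signal was 129870 to 150020 on HFD and 154730 to 181880 on ND.

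Of 11125 genes tested, 1839 (16.5%) differed between HFD and ND in KO liver at an adjusted p under 0.05 (limma with Benjamini-Hochberg adjustment), 1019 (9.16%) higher on HFD and 820 (7.37%) lower. A change of at least 2-fold was reached by 502 of them, 358 higher and 144 lower. The 3 and 3 KO arrays did not overlap between diets for 4291 (38.6%) of the 11125 genes. The same fit called 1392 genes (12.5%) for diet in WT liver, 720 (6.47%) higher and 672 (6.04%) lower. The WT count was 672 without mouse 547, 745 without mouse 546 and 841 without mouse 687. With only the 6 arrays of a genotype in the fit, 622 genes were called in WT liver and 2245 in KO liver. Without any 1 of the 6 KO arrays the KO count lay between 1128 (without mouse 429) and 1305 (without mouse 428), and it was 1138 without mouse 720, 1181 without mouse 427 and 1187 without mouse 718. When the probe sets of a gene were averaged in place of taking the brightest, 1259 genes were called and 46.23% of them were higher on HFD, against 55.41% with the brightest.

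The largest rises among genes measured on both diets were those of Serpina7, Cxcl1, Gadd45a, Dbp and Thrsp, and the last 4 are described below with their gene lists. Serpina7, which encodes thyroxine-binding globulin, had signals of 1814, 1938 and 1734 on HFD and 115, 27.1 and 78.5 on ND (log2 difference 4.87 ± 0.66 SE, adjusted p = 0.000582). All HFD arrays lay far above all ND arrays. It also rose in WT liver (3.03, adjusted p = 0.0114), where mouse 547 was the highest at 479. Lgals1, encoding the galactose-binding lectin galectin-1, gave 3224, 2419 and 3521 on HFD and 401, 236 and 398 on ND (3.17 ± 0.24, adjusted p = 1.29e-05). Lgals1 also rose in WT liver (0.98, adjusted p = 0.0182), where its signal did not exceed 175 on HFD or 113 on ND. Genes that were dim on ND and rose included Cidea, described below, Afp, the fetal plasma protein alpha-fetoprotein (at least 4-fold), Ttc39a (at least 3.34-fold) and Slfn8 (at least 2.20-fold). These bounds set the HFD mean against the lowest level tested. The Ttc39a and Slfn8 calls were lost in 4 fits each that left out 1 KO array (mice 427, 429, 718 or 720), with adjusted p up to 0.112 and 0.0657.

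The largest falls included the ion channel gene Asic5, with 81.3, 115 and 104 on HFD and 730, 935 and 698 on ND (log2 difference -2.98 ± 0.22, adjusted p = 1.28e-05). The ubiquitin ligase gene Rnf25 fell to a like extent in both genotypes (-3.10 in KO and -3.06 in WT). Igha, the immunoglobulin A heavy chain, was 15.8, 20.9 and 5.02 on HFD and 82.8, 117 and 69.9 on ND (-2.89 ± 0.49, adjusted p = 0.00206). Prdm11 (at least 5.64-fold lower), Tcea2 (at least 2.43-fold) and Frat2 (at least 2.17-fold) were dim on HFD. Cyp26a1, which degrades retinoic acid, was 13.7, 7.68 and 13.6 on HFD and 99.7, 49.9 and 105 on ND (at least 6.56-fold lower, adjusted p = 0.0389). Its call was lost without any 1 of the 6 KO arrays (adjusted p 0.0584 to 0.116). The nuclear import receptor gene Tnpo3, the co-chaperone gene Dnajc7 and the cytoskeletal regulator gene Fam107a also fell in both genotypes, by 2.11, 1.91 and 2.49 on the log2 scale in KO liver.

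**Figure D1:**
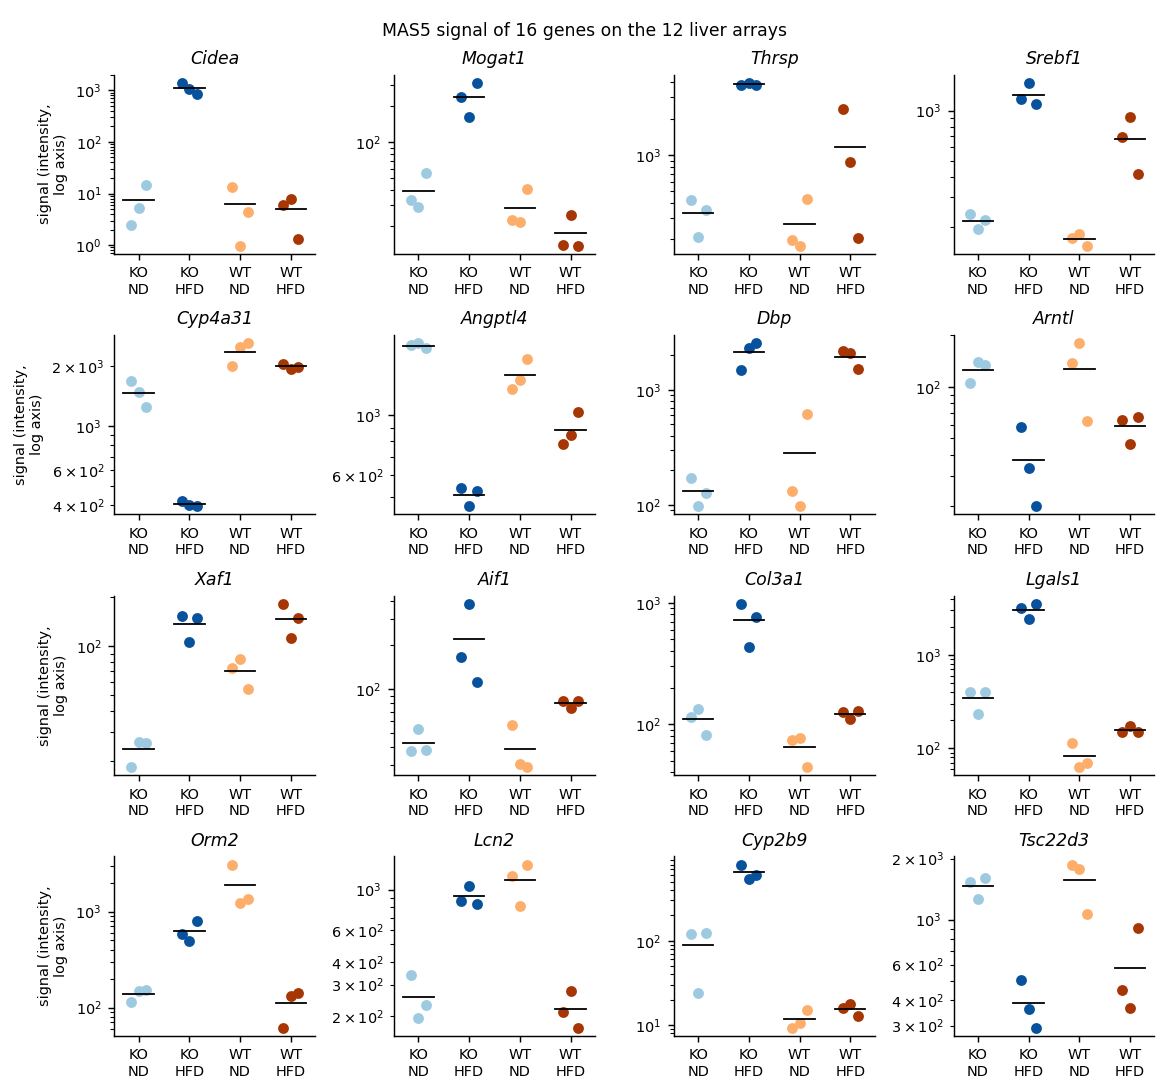
MAS5 signal (intensity, log axis) of 16 genes on the 12 liver arrays, with 1 point per mouse, and a line at the mean of each group of 3 (KO ND, KO HFD, WT ND, WT HFD). The Cidea points of KO HFD lie at 844 to 1402 while those of the other groups lie at 14.5 or below, and the Orm2 and Lcn2 points move in opposite directions in KO and WT.

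Interferon-induced genes had a larger share of calls in KO liver than any other list described here. Type I and type II interferons act through STAT transcription factors and switch on antiviral effectors, guanylate-binding GTPases and antigen-processing genes. Of 28 members tested (3 more were under the filter), 20 rose on HFD in KO liver and none fell, and the median log2 difference was 1.20 against 0.02 over all genes. In WT liver 9 rose and none fell (median 0.56). Of all genes, 9.16% rose in KO liver and 6.47% in WT liver. The members called higher numbered 14 to 19 without any 1 KO array.

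Promoters of 4 interferon-induced genes that rose, and of the macrophage protease gene Ctss, are shown because they hold the letters of the interferon-stimulated response element. The sequences are the 250 bases before the annotated start in RefSeq (GRCm38.p6), given 5′ to 3′ on the gene's strand. Capitals mark GAAA, any 2 bases and GAAA again, or the reverse complement.
Ifit1 (chr19:34640639-34640888, plus strand): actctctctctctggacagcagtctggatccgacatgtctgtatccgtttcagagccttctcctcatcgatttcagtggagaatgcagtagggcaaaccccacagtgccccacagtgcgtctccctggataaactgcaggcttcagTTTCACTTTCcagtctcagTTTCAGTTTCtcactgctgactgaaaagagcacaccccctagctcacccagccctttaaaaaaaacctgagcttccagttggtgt
Ifit3 (chr19:34583279-34583528, plus strand): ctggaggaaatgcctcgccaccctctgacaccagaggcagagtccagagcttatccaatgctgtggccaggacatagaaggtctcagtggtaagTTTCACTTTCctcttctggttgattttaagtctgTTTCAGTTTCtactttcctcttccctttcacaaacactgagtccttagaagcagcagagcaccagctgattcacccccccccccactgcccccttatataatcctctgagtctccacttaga
Gbp2 (chr3:142620413-142620662, plus strand): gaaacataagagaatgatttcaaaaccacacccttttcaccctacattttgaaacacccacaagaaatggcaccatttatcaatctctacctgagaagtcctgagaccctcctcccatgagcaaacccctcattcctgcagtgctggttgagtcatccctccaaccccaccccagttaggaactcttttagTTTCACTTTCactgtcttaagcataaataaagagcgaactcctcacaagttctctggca
Igtp (chr11:58199306-58199555, plus strand): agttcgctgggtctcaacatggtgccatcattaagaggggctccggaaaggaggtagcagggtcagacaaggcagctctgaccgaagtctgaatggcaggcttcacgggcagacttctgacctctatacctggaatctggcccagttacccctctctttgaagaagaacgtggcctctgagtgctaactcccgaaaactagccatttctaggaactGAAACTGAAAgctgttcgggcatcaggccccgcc
Ctss (chr3:95526536-95526785, plus strand): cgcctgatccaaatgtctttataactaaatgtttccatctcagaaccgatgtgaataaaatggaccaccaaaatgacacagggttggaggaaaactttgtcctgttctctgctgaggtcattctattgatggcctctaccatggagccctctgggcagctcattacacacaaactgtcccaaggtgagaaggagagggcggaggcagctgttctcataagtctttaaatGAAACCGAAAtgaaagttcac
The motif began 104 and 85 bases before the start of Ifit1, 156 and 122 before Ifit3, 59 before Gbp2, 34 before Igtp and 21 before Ctss. On either strand it occurred in the windows of 11 of the 23 tested list members that have one (47.8%), 3.12% of all genes tested and 3.46% of all 27025 genes with a window. Among the list members called higher in KO liver it occurred in 8 of 17 (47.1%), about the same share as in all tested members. Stat2, Bst2 and Rsad2 also hold the motif and were not called (log2 differences -0.28, 0.14 and 0.92). Among the macrophage genes the motif occurred in 3 of 27 (11.1%). Matches within a window can overlap, and a match is a description of the letters, not of binding.

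Xaf1, a pro-apoptotic interferon-induced gene, showed the smallest p of the group. Its signal was 153, 106 and 148 on HFD and 18.4, 26.1 and 25.9 on ND in KO liver (log2 difference 2.53 ± 0.23, adjusted p = 4.71e-05). The HFD arrays were about equal to those of WT HFD liver (180, 111 and 148), whereas the KO ND arrays lay below those of WT ND liver (73.8, 83.2 and 54.4). Gbp6, a guanylate-binding GTPase, gave 333, 246 and 282 on HFD and 29.8, 56.4 and 81.6 on ND (2.46 ± 0.30, adjusted p = 0.000289). All KO HFD values of Gbp6 exceeded those of WT HFD liver (92.0, 66.0 and 72.6).

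The 4 genes whose promoters are shown were named after their values were seen. Ifit1, an antiviral RNA-binding protein gene, was 253, 151 and 238 on HFD and 47.9, 60.5 and 40.4 on ND (2.09 ± 0.30, adjusted p = 0.00078). For Ifit3 the signals were 189, 134 and 237 on HFD and 59.9, 68.1 and 46.8 on ND, and for Gbp2 142, 132 and 88.8 against 25.6, 41.9 and 17.5. The GTPase gene Igtp gave 686, 653 and 608 on HFD and 226, 322 and 317 on ND. In each of these genes the diets did not overlap, and mouse 428 had the lowest HFD value of Ifit1 and Ifit3.

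The immunoproteasome subunit genes Psmb9 (2.11 ± 0.27, adjusted p = 0.000374) and Psmb8 (1.32 ± 0.17, adjusted p = 0.000437) and the RNA sensor gene Ifih1 (1.39 ± 0.19) rose as well. Psmb9 signals were 378, 314 and 427 on HFD and 68.3, 122 and 75.5 on ND in KO liver, and 314, 172 and 217 on HFD and 186, 230 and 131 on ND in WT liver. The WT diets overlapped. On ND, 17 of the 28 interferon-induced genes were lower in KO than in WT (median log2 difference -0.15), and on HFD 4 were lower (median 0.32). Of all 11125 genes, 6245 were lower in KO on ND (median -0.05) and 5899 on HFD (median -0.03). The interferon-induced count on ND was thus near the share over all genes. Of 10 tested genes of class I and II antigen presentation, 1 rose, where 9.16% of all genes did. It was the peptide-loading gene Tapbp (0.75 ± 0.11, adjusted p = 0.00112), a difference that was -0.0864 when its probe sets were averaged.

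Macrophage genes also rose. Of 35 Kupffer cell and macrophage genes tested (1 under the filter), 21 rose and 1 fell in KO liver, against 9.16% and 7.37% of all genes. Their median log2 difference was 1.03. In WT liver 5 rose and 2 fell (median 0.19), against 6.47% and 6.04% of all genes. The summed signal of the 36 measured members was 15787 to 18306 on KO HFD and 9337 to 11074 on KO ND, 11762 to 14266 on WT HFD and 8717 to 13557 on WT ND. More macrophages and more RNA of these genes per macrophage cannot be told apart in whole liver. The members called higher numbered 16 to 20 without any 1 KO array.

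Ctss, the lysosomal protease cathepsin S, was 1236, 1041 and 1105 on HFD and 526, 502 and 516 on ND in KO liver (1.13 ± 0.09, adjusted p = 3.06e-05). All HFD arrays lay above all ND arrays, and each diet was tight within itself. In WT liver Ctss was 752, 808 and 752 on HFD and 727, 650 and 686 on ND (0.17 ± 0.09, adjusted p = 0.275). The diet effect differed between genotypes by 0.96 ± 0.13 (adjusted p = 0.009).

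The lysozyme gene Lyz2 (1.34 ± 0.17), the colony-stimulating factor receptor gene Csf1r (1.02 ± 0.14), the signalling adaptor gene Tyrobp (1.37 ± 0.19) and the NADPH oxidase subunit gene Cyba (1.15 ± 0.18) rose on HFD with adjusted p between 0.000374 and 0.00143. Lyz2 was 1021, 892 and 894 on HFD and 389, 425 and 305 on ND. Csf1r was 2669, 2649 and 2208 on HFD and 1171, 1362 and 1172 on ND. The diets were apart for these 4 genes, and 26 of the 35 members had non-overlapping diets, against 38.6% of all genes.

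The following 5 members, several of them known as markers of resident Kupffer cells, were named after their values were seen and differed among themselves. Clec4f was 530, 222 and 462 on HFD and 540, 581 and 436 on ND (-0.44 ± 0.25, adjusted p = 0.257), and Timd4 was 43.4, 94.2 and 43.9 against 41.6, 64.5 and 58.7 (0.06 ± 0.35). Both overlapped between diets. Cd163, a haemoglobin scavenger receptor, was the member that fell, with 104, 98.7 and 160 on HFD and 214, 247 and 251 on ND (-1.0 ± 0.20, adjusted p = 0.00533), and it also fell in WT liver (-0.72, adjusted p = 0.0338). Aif1, an actin-binding macrophage gene, was 165, 382 and 111 on HFD and 37.7, 53.0 and 38.3 on ND (2.17 ± 0.37, adjusted p = 0.00215). Adgre1, which encodes F4/80, was 195, 681 and 143 on HFD and 99.4, 127 and 118 on ND, and did not pass the threshold (1.23 ± 0.41, adjusted p = 0.056). Mouse 428 was the highest array for both genes.

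Genes of lipid-associated macrophages, which clear lipid in fatty tissue, followed with 5 of 18 higher and none lower, against 9.16% and 7.37% of all genes. Lgals3, encoding galectin-3, was 539, 231 and 458 on HFD and 100, 127 and 71.7 on ND (1.99 ± 0.32, adjusted p = 0.00165). Cd52 was 382, 424 and 288 against 116, 157 and 116 (1.49 ± 0.18, adjusted p = 0.000326). Neither gene overlapped between diets in KO liver, and in WT liver both had adjusted p above 0.39. The count of this list fell to 3 without mouse 428, 429, 719 or 720.

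Chemokine, cytokine and adhesion genes contributed 10 higher and 1 lower of 23 tested, against 9.16% and 7.37% of all genes. A further 8 were under the filter, among them Ccl2, Tnf and Il6. The neutrophil chemokine gene Cxcl1 was 959, 2068 and 1308 on HFD and 60.7, 69.7 and 62.9 on ND in KO liver (4.42 ± 0.75, adjusted p = 0.0021). It rose as far in WT mice 546 and 547 (2277 and 2390), while WT mouse 560 remained at 165. The interferon-induced chemokine gene Cxcl10 was 130, 107 and 92.0 on HFD and 12.8, 32.0 and 33.1 on ND (2.19 ± 0.34, adjusted p = 0.00131), against 40.2, 33.0 and 26.0 on HFD in WT liver. Tlr2, a receptor for bacterial lipopeptides, rose by 1.06 ± 0.24 (adjusted p = 0.00994). The number called higher was 4 without mouse 427, 5 without mouse 429, 719 or 720, and 6 without mouse 428 or 718.

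Of 12 lymphocyte genes tested (11 under the filter) the pan-leukocyte gene Ptprc rose, from 102, 151 and 110 on ND to 315, 384 and 262 on HFD (1.41 ± 0.23, adjusted p = 0.00155), and it was not called when its probe sets were averaged (adjusted p = 0.723). None of 5 neutrophil genes tested passed the threshold (limma; 6 under the filter), and the smallest adjusted p, of Ngp, was 0.161 (the only unadjusted p under 0.05 of the 5, at 0.0491). The median log2 difference of the 5 was 0.93, with S100a9 at 65.6, 56.2 and 60.0 on HFD and 16.2, 64.3 and 25.2 on ND (1.03 ± 0.55, adjusted p = 0.23). Summed signal of the 11 measured neutrophil genes, 6 of them under the filter, was 236 to 260 on KO HFD and 106 to 232 on KO ND. These sums did not overlap, as was the case for 38.6% of single genes, and the sum reached 329 in WT ND liver. Endothelial genes gave 2 higher and 1 lower of 24, with Plvap, a component of endothelial diaphragms, rising by 0.77 ± 0.17 (adjusted p = 0.00882). Over all genes 9.16% were called higher and 7.37% lower, so the lymphocyte and endothelial counts did not exceed these shares.

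Collagen and other stellate cell or matrix genes that were called in KO liver were higher on HFD. Stellate cells store vitamin A and lay down fibrillar collagen when activated. Of 33 members tested (6 under the filter) 15 rose and none fell in KO liver (median 0.64), whereas 1 rose and 4 fell in WT liver (median -0.06). The shares over all genes were 9.16% and 7.37% in KO liver, and 6.47% and 6.04% in WT liver. Without mouse 427 or mouse 429 the number that rose was 8, and without any other KO array it was up to 14.

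Col3a1, the type III collagen gene, was 977, 434 and 766 on HFD and 115, 133 and 81.5 on ND in KO liver (2.68 ± 0.28, adjusted p = 0.000112). All HFD arrays were higher, with mouse 428 the lowest of them. In WT liver it was 126, 110 and 128 against 74.5, 76.7 and 44.3 (0.93 ± 0.28, adjusted p = 0.0482). Col1a2, the type I collagen gene, was 521, 267 and 553 on HFD and 95.5, 130 and 92.7 on ND (2.02 ± 0.25, adjusted p = 0.000314), again with mouse 428 the lowest on HFD. In WT liver its diets overlapped (85.3, 101 and 102 against 106, 142 and 98.9), and the diet effect differed between genotypes by 2.27 ± 0.35 (adjusted p = 0.012). With the mean of its probe sets that adjusted p was 0.128.

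The intermediate filament gene Vim (1.54 ± 0.20, adjusted p = 0.00042), the type VI collagen gene Col6a3 (1.38 ± 0.20, adjusted p = 0.000847) and the matrix protein gene Tgfbi (0.72 ± 0.12, adjusted p = 0.00158) rose too. Vim was 450, 484 and 354 on HFD and 131, 151 and 160 on ND. A pair of stellate genes, named after their values were seen, gave no call. Dcn was 2360, 1974 and 2476 on HFD and 2370, 2359 and 2275 on ND, and the smooth muscle actin gene Acta2 was 122, 69.2 and 86.6 against 52.5, 55.4 and 50.4 (0.77 ± 0.35, adjusted p = 0.15). Col1a1, Timp1 and Lox were under the filter. Of 7 bile duct or keratin genes tested, 3 rose, where 9.16% of all genes did. Krt8, a keratin of hepatocytes and ducts, was 2993, 2279 and 2572 on HFD and 1449, 1568 and 1607 on ND (0.75 ± 0.12, adjusted p = 0.00183). The other 2, Krt18 and Krt23, lost their calls in most fits without 1 array, and the count was 1 without mouse 429, 718 or 720.

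**Figure D2:**
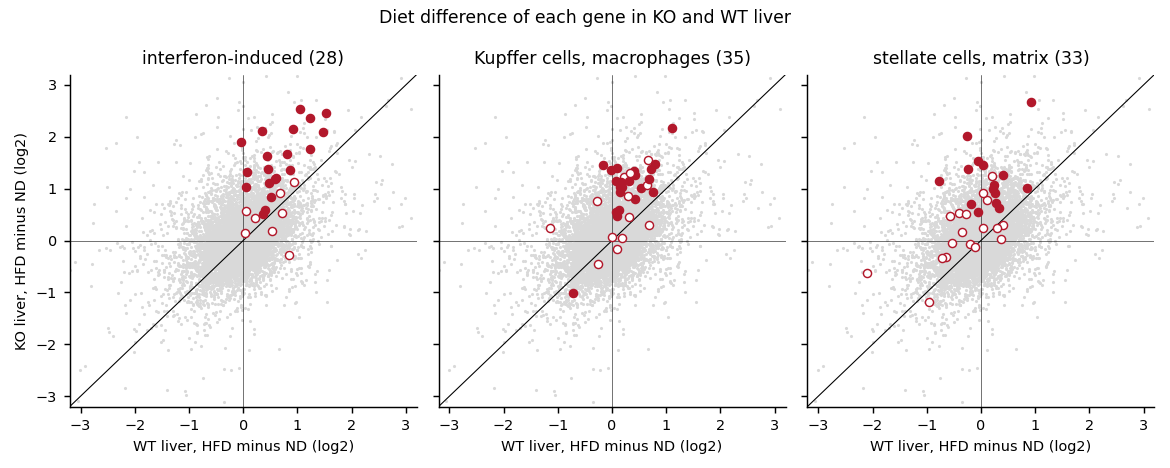
Log2 difference between HFD and ND of each gene in KO liver (vertical) against WT liver (horizontal), for interferon-induced, macrophage and stellate or matrix genes (circles, filled where the KO adjusted p was under 0.05), with all genes tested in grey and the line of equal differences. Genes beyond 3.2 on either axis lie outside the panels, and the 2 axes share no samples.

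Cholesterol synthesis genes that were called were higher on HFD. They are targets of SREBP-2, which is released when membrane sterol falls. Of 20 members tested 8 rose and none fell in KO liver (median 0.91), against 9.16% and 7.37% of all genes. In WT liver 5 rose and 1 fell (median 0.54), against 6.47% and 6.04% of all genes. Sqle, encoding squalene epoxidase, was 269, 217 and 79.2 on HFD and 29.3, 12.4 and 32.8 on ND (2.87 ± 0.71, adjusted p = 0.0158). Mouse 429 was the lowest HFD array, though still above every ND array. Insig1, which retains SREBP in the endoplasmic reticulum, was 1095, 1191 and 745 on HFD and 311, 303 and 450 on ND (1.51 ± 0.36, adjusted p = 0.0133), and rose in WT liver as well (1.29, adjusted p = 0.0338). Lss, lanosterol synthase, was 151, 168 and 120 against 47.1, 70.2 and 64.0 (1.28 ± 0.29, adjusted p = 0.00978).

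The spread between mice within a diet limited these calls. Mouse 429 was the lowest HFD array for Sqle, Insig1, Fdft1, Stard4 and Lss. Hmgcs1, named after its values were seen, was 4956, 4291 and 1956 on HFD and 2323, 1982 and 2542 on ND, so that mouse 429 fell within the ND range (0.61 ± 0.36, adjusted p = 0.276). The count of members that rose was 2 without mouse 427 or 428, 3 without mouse 719 and 4 without mouse 718 or 720. The Sqle call was lost without mouse 427, 428 or 719 (adjusted p 0.0521 to 0.0663).

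Genes of fatty acid synthesis changed in both directions. Of 22 tested, 6 rose and 3 fell in KO liver, against 9.16% and 7.37% of all genes. In WT liver 3 rose and 6 fell, against 6.47% and 6.04% of all genes. Srebf1, the gene of SREBP-1, was 1175, 1474 and 1104 on HFD and 238, 194 and 218 on ND (2.52 ± 0.22, adjusted p = 3.06e-05). Thrsp, a promoter of lipogenesis responsive to thyroid hormone and carbohydrate, was 3781, 3980 and 3834 on HFD and 424, 211 and 347 on ND (3.62 ± 0.63, adjusted p = 0.00257). Mid1ip1, which activates acetyl-CoA carboxylase, was 337, 420 and 321 against 103, 82.3 and 121 (1.82 ± 0.24, adjusted p = 0.000422). The 3 HFD arrays of Thrsp differed little, while WT HFD liver spanned 2422, 877 and 207. Nr1h3, encoding the oxysterol receptor LXRα, fell from 263, 248 and 261 on ND to 162, 173 and 174 on HFD (-0.60 ± 0.10, adjusted p = 0.00212). Elovl3, a fatty acid elongase, fell by 1.74 on the log2 scale (adjusted p = 0.0121), with 1185, 825 and 879 on HFD and 3670, 2242 and 3869 on ND. Srebf1, Mid1ip1, Nr1h3 and Elovl3 changed the same way in WT liver (1.93, 1.62, -0.76 and -1.98, adjusted p 0.000268 to 0.00786). No difference between the diet effects was called for them (adjusted p 0.389 to 0.886). Thrsp was not called in WT liver (1.62, adjusted p = 0.114). In each fit that left out 1 KO array, 6 members were called higher.

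Glycerolipid synthesis genes that were called were mainly lower. Of 16 tested, 6 fell and 2 rose, against 7.37% and 9.16% of all genes. Lpin1, a phosphatidate phosphatase, was 400, 474 and 272 on HFD and 1151, 2350 and 1683 on ND (-2.15 ± 0.49, adjusted p = 0.0106). Gpat4, which acylates glycerol 3-phosphate, was 114, 111 and 119 against 274, 271 and 265 (-1.24 ± 0.23, adjusted p = 0.00356). Lpin2 (-1.03 ± 0.24) and Dgat1, which makes triglyceride (-0.64 ± 0.15, adjusted p = 0.0124, and 0.0522 without mouse 719), also fell. Mogat1, a monoacylglycerol acyltransferase, was one of the members that rose, with 236, 161 and 313 on HFD, 32.9, 29.1 and 54.9 on ND, and 13.9, 24.7 and 13.8 on WT HFD. The log2 difference was 2.61 ± 0.35 (adjusted p = 0.000538) in KO and -0.69 ± 0.35 (adjusted p = 0.226) in WT, and the difference between the effects was 3.30 ± 0.49 (adjusted p = 0.012).

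Lipid droplet genes included the gene with the largest difference of all. Cidea, which fuses lipid droplets and is a marker of brown and beige fat, was 1402, 1072 and 844 on HFD and 2.41, 5.2 and 14.5 on ND in KO liver. WT liver held 6.10, 7.90 and 1.34 on HFD and 13.3, 0.98 and 4.29 on ND, none above the highest KO ND array. The KO HFD mean was at least 85.4-fold the lowest level tested, and the fitted difference of 7.58 ± 0.88 (adjusted p = 0.000234) depends on the floor set under low signals. Cidea reached the level set for testing only through the KO HFD arrays, so this p-value adds no separate support. Cidea is also in the list of adipocyte markers, whose summed signal was 16562 to 17639 on KO HFD and 15764 to 19403 on KO ND. Of the 13 markers in this sum, 6 were under the filter. The sum also holds the gluconeogenic gene Pck1 (means of 3471 on KO HFD and 7294 on KO ND), so it does not measure adipose tissue alone. The part of adipose tissue in the signal was not tested. Of the other adipocyte markers tested, Fabp4 rose (0.95 ± 0.30, adjusted p = 0.0497, lost without mouse 427, 428, 429, 718 or 720) and Pck1 fell. Of 18 droplet genes tested, 3 rose and 3 fell, against 9.16% and 7.37% of all genes. Plin5 fell by 0.74 (adjusted p = 0.0206, lost without mouse 428, 429, 718 or 720, up to 0.0902). The number of droplet genes that rose was 1 without mouse 427, 428, 429 or 718, and none fell without mouse 429, 718 or 720.

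Fatty acid uptake and activation genes gave 6 higher and 1 lower of 18, against 9.16% and 7.37% of all genes. Cd36, the fatty acid translocase, was 899, 831 and 1030 on HFD and 466, 422 and 476 on ND (1.01 ± 0.15, adjusted p = 0.00105). In WT liver it was 186, 194 and 157 against 154, 145 and 218, so that both KO groups lay above both WT groups. The lipase gene Lpl was 908, 507 and 541 on HFD and 281, 302 and 139 on ND (1.46 ± 0.44, adjusted p = 0.0361), and its call was lost without any 1 KO array except mouse 719 (adjusted p up to 0.142). The count of members that rose was 1 without mouse 427, 429 or 720, 2 without mouse 428 or 718, and 5 without mouse 719.

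Genes of fatty acid oxidation that changed were all lower on HFD. Of 24 tested, 9 fell and none rose in KO liver (median -0.25), against 3 lower and 1 higher in WT liver. The shares over all genes were 7.37% lower and 9.16% higher in KO liver, and 6.04% and 6.47% in WT liver. Ehhadh, the peroxisomal bifunctional enzyme, was 2901, 2611 and 2742 on HFD and 8155, 7334 and 7425 on ND (-1.47 ± 0.15, adjusted p = 7.87e-05). WT liver gave 3819, 3961 and 6019 against 6655, 8000 and 7508 (-0.71, adjusted p = 0.00818). The mitochondrial dehydrogenase genes fell by less, with Acadvl at 2455, 2668 and 2467 on HFD and 3537, 3240 and 3379 on ND (-0.42 ± 0.09, adjusted p = 0.00771). The count of members that fell was 2 without mouse 429 or 718 and 3 without mouse 427 or 720.

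Of 20 other PPARα targets tested, 6 fell and none rose, against 7.37% and 9.16% of all genes. Cyp4a31, a fatty acid omega-hydroxylase, was 419, 401 and 394 on HFD and 1679, 1474 and 1237 on ND (-1.84 ± 0.12, adjusted p = 5.74e-06). In WT liver it was 2059, 1936 and 1984 against 1997, 2488 and 2602, and the diet effect differed between genotypes by -1.61 ± 0.17 (adjusted p = 0.00136; 0.0857 with the mean of probe sets). Cyp4a genes are close paralogs, and probe sets may read more than one of them. The acyl-CoA thioesterase gene Acot1 was 576, 1124 and 743 against 2519, 2264 and 2734 (-1.67 ± 0.24, adjusted p = 0.00071). Ppargc1a, the coactivator PGC-1α, was 86.4, 85.5 and 68.8 against 257, 270 and 150 (-1.45 ± 0.24, adjusted p = 0.00166). Angptl4, a secreted inhibitor of lipoprotein lipase that PPARα induces, was 538, 462 and 526 on HFD and 1808, 1836 and 1763 on ND (-1.83 ± 0.12, adjusted p = 5.74e-06). The Angptl4 fall was 0.67 on the log2 scale in WT liver, where no HFD array went below 782.

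**Figure D3:**
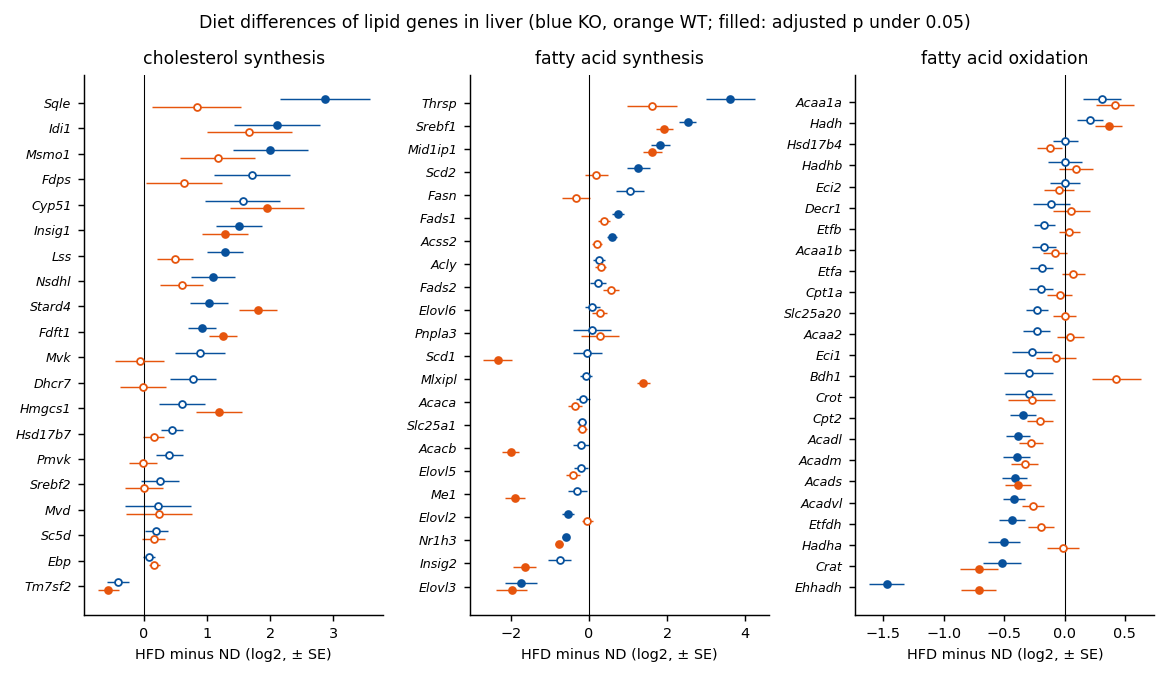
Log2 difference between HFD and ND (± SE) of the tested genes of cholesterol synthesis, fatty acid synthesis and fatty acid oxidation in KO liver (blue) and WT liver (orange), filled where the adjusted p was under 0.05. Cholesterol genes lie mostly to the right of 0 and oxidation genes mostly to the left, with Ehhadh farthest left at -1.47 in KO liver.

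Lipoprotein genes were split, 5 higher and 5 lower of 23, against 9.16% and 7.37% of all genes. Pltp, the phospholipid transfer protein, was 1065, 1572 and 555 on HFD and 282, 331 and 328 on ND (1.64 ± 0.27, adjusted p = 0.00165). Mttp, which loads triglyceride onto apolipoprotein B, was 1341, 1279 and 1229 against 2298, 2243 and 2749 (-0.92 ± 0.17, adjusted p = 0.00297). Apoc2, the cofactor of lipoprotein lipase, was 6450, 7685 and 8319 against 5396, 4699 and 4367 (0.63 ± 0.13, adjusted p = 0.00553). The diets were apart for all 3, as they were for 38.6% of all genes. The number that rose was 3 without mouse 719 or 720, and the number that fell was 2 without mouse 427 or 720 and 3 without mouse 718.

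Of 27 bile acid genes tested, 8 fell and 1 rose, against 7.37% and 9.16% of all genes. Cyp27a1, a sterol 27-hydroxylase, was 2067, 2023 and 1921 on HFD and 3315, 3383 and 3425 on ND (-0.75 ± 0.10, adjusted p = 0.000652), a difference that was 0.14 when its probe sets were averaged. Slco1a4, a sinusoidal organic anion transporter, was 273, 326 and 228 against 716, 1249 and 745 (-1.68 ± 0.30, adjusted p = 0.0026), with the same fall in WT liver (-1.70). The oxysterol 7α-hydroxylase gene Cyp39a1 was 68.2, 46.4 and 44.4 against 208, 316 and 216 (-2.22 ± 0.29, adjusted p = 0.000437). The bile acid receptor gene Nr1h4 was the member that rose (0.46 ± 0.11, adjusted p = 0.0155; 0.054 without mouse 429). Without any 1 KO array, 2 to 4 members were called lower.

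Amino acid breakdown and urea cycle genes that were called were mainly lower in both genotypes. In KO liver 8 of 30 tested fell and 2 rose, against 7.37% and 9.16% of all genes. In WT liver 14 fell and none rose, against 6.04% and 6.47% of all genes. Asl, argininosuccinate lyase, was 1122, 1162 and 1030 on HFD and 3455, 3867 and 3138 on ND (-1.65 ± 0.16, adjusted p = 6.7e-05). Arg1, arginase, was 4176, 5029 and 4715 against 9054, 7978 and 8194 (-0.86 ± 0.12, adjusted p = 0.000755). The KO ND signals of Asl and Arg1 were below those of WT ND liver (6325 to 6589, and 11396 to 12164), and the falls were of like size in WT liver (-1.61 and -0.78). Without mouse 718 the count of members that fell was 4.

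Among 23 glucose genes 3 fell and 2 rose, where 16.5% of all genes were called. Pck1, the gluconeogenic enzyme PEPCK, was 3799, 3054 and 3562 on HFD and 7926, 6412 and 7545 on ND (-1.07 ± 0.18, adjusted p = 0.00196). Slc37a4, the glucose 6-phosphate transporter of the endoplasmic reticulum, fell by 0.68 on the log2 scale (adjusted p = 0.00476). The glycolytic gene Pklr rose, from 182, 178 and 184 to 473, 270 and 339 (0.95 ± 0.24, adjusted p = 0.0173; 0.074 without mouse 427 and 0.0516 without mouse 719). Of 27 insulin signalling genes tested, 1 rose and 2 fell, a smaller share than over all genes. Igfbp2, which binds insulin-like growth factors, was 1410, 2361 and 1736 on HFD and 5353, 4670 and 3423 on ND (-1.30 ± 0.21, adjusted p = 0.00153), whereas WT liver held 4731 to 7047 on either diet (difference between the effects -1.33 ± 0.29, adjusted p = 0.0511).

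Circadian clock genes were called in both directions. Outputs that peak towards the end of the light phase and genes that peak around its start are normally in opposite phase in mouse liver. Of 20 genes tested 8 were higher on HFD and 3 lower in KO liver, against 9.16% and 7.37% of all genes. In WT liver 5 were higher and 1 lower, against 6.47% and 6.04% of all genes. Dbp, an output transcription factor, was 1489, 2303 and 2527 on HFD and 172, 98.6 and 126 on ND (3.99 ± 0.50, adjusted p = 0.000374), a log2 difference of 3.25 in WT liver (adjusted p = 0.00189). Arntl, encoding the activator BMAL1, was 58.4, 33.5 and 20.0 on HFD and 105, 139 and 134 on ND (-1.88 ± 0.39, adjusted p = 0.00624). Nfil3, the repressor of the genes that DBP activates, was 98.2, 132 and 108 against 264, 218 and 322 (-1.24 ± 0.21, adjusted p = 0.00215). The period gene Per3 rose by 2.12 ± 0.43 (adjusted p = 0.00553; 0.103 with the mean of its probe sets).

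Of further clock genes, named after their values were seen, Wee1, a mitotic kinase under clock control, was 167, 263 and 287 on HFD and 59.9, 41.8 and 64.5 on ND (2.09 ± 0.46, adjusted p = 0.00912). Bhlhe40, a clock repressor, was 1561, 824 and 1131 against 510, 163 and 512 (1.70 ± 0.37, adjusted p = 0.00891). Nr1d1, the repressor REV-ERBα, overlapped between diets (31.8, 7.72 and 34.2 against 20.4, 6.28 and 42.3). The number called higher was 4 without mouse 428, 429, 718 or 719. The hour of collection is not given in the labels, so a difference in hour between the diet groups cannot be told apart from diet.

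**Figure D4:**
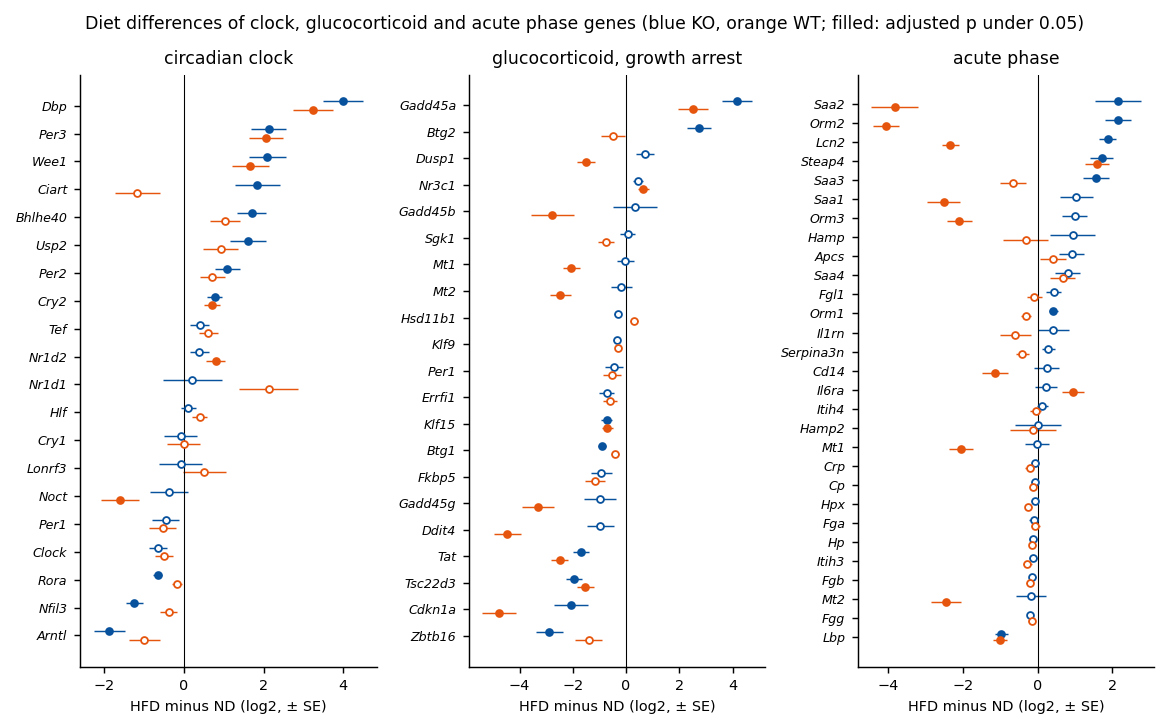
Log2 difference between HFD and ND (± SE) of the tested clock, glucocorticoid or growth arrest, and acute phase genes in KO liver (blue) and WT liver (orange), filled where the adjusted p was under 0.05. Dbp lies at 3.99 in KO and 3.25 in WT, and Orm2 at 2.15 in KO and -4.05 in WT.

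Glucocorticoid-induced and growth arrest genes were lower on HFD for 6 of 21 members and higher for 2 (median -0.45), against 7.37% and 9.16% of all genes. In WT liver 10 were lower and 2 higher (median -1.17), against 6.04% and 6.47% of all genes. Tsc22d3, the glucocorticoid-induced leucine zipper, was 505, 362 and 294 on HFD and 1537, 1266 and 1610 on ND (-1.96 ± 0.31, adjusted p = 0.00135). Zbtb16, a glucocorticoid-induced zinc finger repressor, was 18.9, 79.9 and 15.9 against 177, 175 and 310 (-2.88 ± 0.50, adjusted p = 0.00235). The cell cycle inhibitor gene Cdkn1a was 206, 59.0 and 59.5 against 347, 387 and 391 (-2.06 ± 0.63, adjusted p = 0.0408), and its call was lost without mouse 428, 429, 718, 719 or 720 (up to 0.142). The members that rose were Gadd45a and Btg2. Gadd45a, a stress sensor, was 392, 140 and 518 on HFD and 8.98, 24.8 and 22.0 on ND (4.17 ± 0.56, adjusted p = 0.000538).

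Several stress-responsive immediate early genes had higher signals in KO mice 427 and 429 than in mouse 428. Of 22 tested, 5 rose and none fell in KO liver, against 9.16% and 7.37% of all genes. In WT liver 1 rose and 1 fell, against 6.47% and 6.04% of all genes. Fos was 1867, 300 and 1182 on HFD and 161, 203 and 145 on ND (2.37 ± 0.55, adjusted p = 0.0113). Atf3, a stress-induced transcription factor, was 344, 64.1 and 256 against 33.5, 17.3 and 17.1 (3.05 ± 0.55, adjusted p = 0.00298). Btg2, an antiproliferative gene, was 1256, 236 and 903 against 128, 94.7 and 74.5 (2.74 ± 0.44, adjusted p = 0.00158). In all 3 genes mouse 428 lay between the other HFD mice and the ND mice. These genes respond to tissue handling as well as to signals in the animal, which was not tested here. Without mouse 428, 8 members were called, and 3 were called without mouse 427, 429, 719 or 720.

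Cell cycle genes gave 4 higher and none lower of 16 tested (12 under the filter), against 9.16% and 7.37% of all genes. Mcm5, a subunit of the replicative helicase, was 61.9, 95.7 and 50.8 on HFD and 23.2, 21.5 and 26.5 on ND (1.5 ± 0.32, adjusted p = 0.00708). Cyclin D1 (Ccnd1) was 287, 150 and 241 against 85.5, 54.9 and 61.4 (1.72 ± 0.45, adjusted p = 0.0196). Without mouse 427, 428 or 720 the count was 2, 2 and 1, and the Ccnd1 call was lost without mouse 427, 429, 719 or 720 (adjusted p up to 0.0728).

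Acute phase genes held the most called differences between the genotypes of any list. They encode plasma proteins that hepatocytes secrete under interleukin-6 and interleukin-1. Of 29 tested 6 rose and 1 fell in KO liver (median 0.25), against 9.16% and 7.37% of all genes. In WT liver 2 rose and 9 fell (median -0.27), against 6.47% and 6.04% of all genes. For 5 the diet effect was called higher in KO than in WT, against 0.620% of all genes. Orm2, an orosomucoid, was 585, 491 and 790 on HFD and 115, 148 and 154 on ND in KO liver (2.15 ± 0.35, adjusted p = 0.00166). In WT liver it was 61.8, 131 and 141 on HFD and 3091, 1217 and 1369 on ND (-4.05 ± 0.35, adjusted p = 5.84e-05). The arrays of each diet were apart in both genotypes and in opposite order.

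Lcn2, an iron-scavenging lipocalin, was 868, 1052 and 833 on HFD and 338, 196 and 231 on ND in KO liver (1.88 ± 0.23, adjusted p = 0.000303), and 212, 278 and 174 on HFD and 1189, 815 and 1372 on ND in WT liver (-2.34 ± 0.23, adjusted p = 0.000139). Saa2, serum amyloid A2, was 1277, 1813 and 1806 against 446, 367 and 294 in KO liver (2.15 ± 0.62, adjusted p = 0.0318) and 116, 227 and 263 against 8499, 728 and 3220 in WT liver. The Saa2 call in KO liver was lost without any 1 of the 6 KO arrays (adjusted p 0.0574 to 0.0994), and its near-identical paralog Saa1 may share its probes. On ND, 26 of the 29 acute phase genes were lower in KO than in WT (median log2 difference -0.46), and on HFD 14 were (median 0.02). Of all 11125 genes, 6245 were lower in KO on ND and 5899 on HFD. Lbp, the lipopolysaccharide-binding protein, fell in both genotypes (-0.97 and -1.01), and Steap4, a metalloreductase, rose in both (1.72 and 1.59). With the mean of probe sets neither was called in KO liver.

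Drug-metabolising and sex-biased genes changed for a minority of members, where 16.5% of all genes were called. Of 33 xenobiotic genes tested 6 fell and 1 rose. Cyp2b9, a female-biased cytochrome P450 of the CAR pathway, was 798, 534 and 608 on HFD and 119, 24.1 and 122 on ND in KO liver (3.17 ± 0.48, adjusted p = 0.00105), while WT liver held 9.35 to 17.6 on either diet. The carboxylesterase gene Ces2a was 739, 1020 and 876 against 2997, 3007 and 2647 (-1.73 ± 0.15, adjusted p = 3.06e-05). The xenobiotic receptor genes Nr1i3 (CAR, -1.08 ± 0.21) and Nr1i2 (PXR, -0.95 ± 0.19) both fell. Of 23 growth hormone-dependent or sex-biased genes 4 rose and 2 fell, among them Nudt7, a peroxisomal CoA hydrolase (1.55 ± 0.21), and the growth hormone receptor gene Ghr (1.08 ± 0.21). Hsd3b5, a male-biased steroid dehydrogenase, overlapped between diets in KO liver (332, 929 and 508 against 539, 245 and 346) and rose in WT liver from 214, 98.2 and 71.4 to 4035, 2971 and 2006. The difference between these effects was -4.06 ± 0.61 (adjusted p = 0.012).

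Constitutive proteasome genes that were called fell in both genotypes, 11 of 27 in KO liver and 10 in WT liver, with none higher. Of all genes, 7.37% fell in KO liver and 6.04% in WT liver. Psmd7, a lid subunit, was 221, 219 and 255 on HFD and 404, 400 and 417 on ND (-0.82 ± 0.12, adjusted p = 0.00111). The ATPase subunit gene Psmc5 was 577, 505 and 583 against 853, 883 and 896 (-0.66 ± 0.12, adjusted p = 0.00286). Both were tight within a diet. The number called was 6 or 7 without any 1 KO array.

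Genes of mitochondrial energy production gave few or mixed calls. Of 39 respiratory chain genes 1 rose and 4 fell (median -0.0037), with Uqcrc1, a complex III core protein, falling from 2045, 2052 and 2032 to 1262, 1391 and 1326 (-0.62 ± 0.09, adjusted p = 0.000655). Its partner Uqcrc2 rose by 0.51 ± 0.10 (adjusted p = 0.00613; 0.323 with the mean of its probe sets). Of 21 citrate cycle genes 2 rose and 3 fell (median 0.0012). Over all genes 16.5% were called in either direction. Ribosomal protein genes gave 1 higher and 1 lower of 24, and unfolded protein response genes 3 higher and 1 lower of 28. Of 16 heat shock genes 3 fell and 1 rose, with the co-chaperone gene Stip1 at 90.2, 98.6 and 108 on HFD and 156, 163 and 206 on ND (-0.82 ± 0.14, adjusted p = 0.00227). Glutathione and antioxidant genes gave 4 higher and 6 lower of 34, complement genes 2 higher and none lower of 18, and secreted hepatokine genes 1 higher and 4 lower of 21. Lect2, a secreted chemotactic hepatokine, was 2757, 2360 and 2638 against 1087, 959 and 1133 (1.29 ± 0.24, adjusted p = 0.00329). Small counts moved without 1 array. Respiratory chain genes that fell numbered 2 without mouse 427, 429 or 718, and citrate cycle genes 1 without mouse 428, 718 or 719. Heat shock genes that fell numbered 1 without mouse 427 or 720. Glutathione genes that rose numbered 2 without mouse 427, and those that fell 2 without mouse 718 or 720 and 3 without mouse 428 or 429.

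Hepatocyte markers were lower on HFD for 6 of 20 and higher for 1 (median -0.26), against 7.37% and 9.16% of all genes. Hnf4a, the transcription factor that maintains hepatocyte identity, was 2558, 2582 and 2198 on HFD and 3813, 3479 and 4371 on ND (-0.67 ± 0.13, adjusted p = 0.00553). The albumin gene Alb, named after its values were seen, differed by -0.13 (adjusted p = 0.415). Cebpa was the marker that rose (0.81 ± 0.21, adjusted p = 0.0198; lost without mouse 429, 718 or 719, up to 0.0839). Without mouse 427, 718 or 720 the number that fell was 1, 2 and 3. Of 18 periportal genes 5 fell and none rose, and of 18 pericentral genes 5 rose and 1 fell. Rnf43, a Wnt-induced ligase and pericentral gene, was 104, 117 and 130 on HFD and 31.3, 33.5 and 47.2 on ND (1.67 ± 0.29, adjusted p = 0.0023). Several periportal genes are those of urea synthesis and gluconeogenesis described above, and the pericentral count was 2 without mouse 719 and 3 without mouse 427 or 429. Of 3 blood, 4 pancreas or gut, and 4 skeletal muscle markers tested, none was called higher on HFD. A further 3, 13 and 9 were under the filter, so few of these markers could be read. Summed blood marker signal was 595 to 704 on KO HFD and 826 to 970 on KO ND, without overlap, as was the case for 38.6% of single genes. The trypsin gene Prss2 fell (at least 1.71-fold, adjusted p = 0.031; lost without any 1 KO array except mouse 428, up to 0.108), and so did the muscle calcium pump gene Atp2a1 (at least 2.14-fold, adjusted p = 0.0141; lost without mouse 718 or 719, up to 0.0615). Both were dim on HFD.

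**Figure D5:**
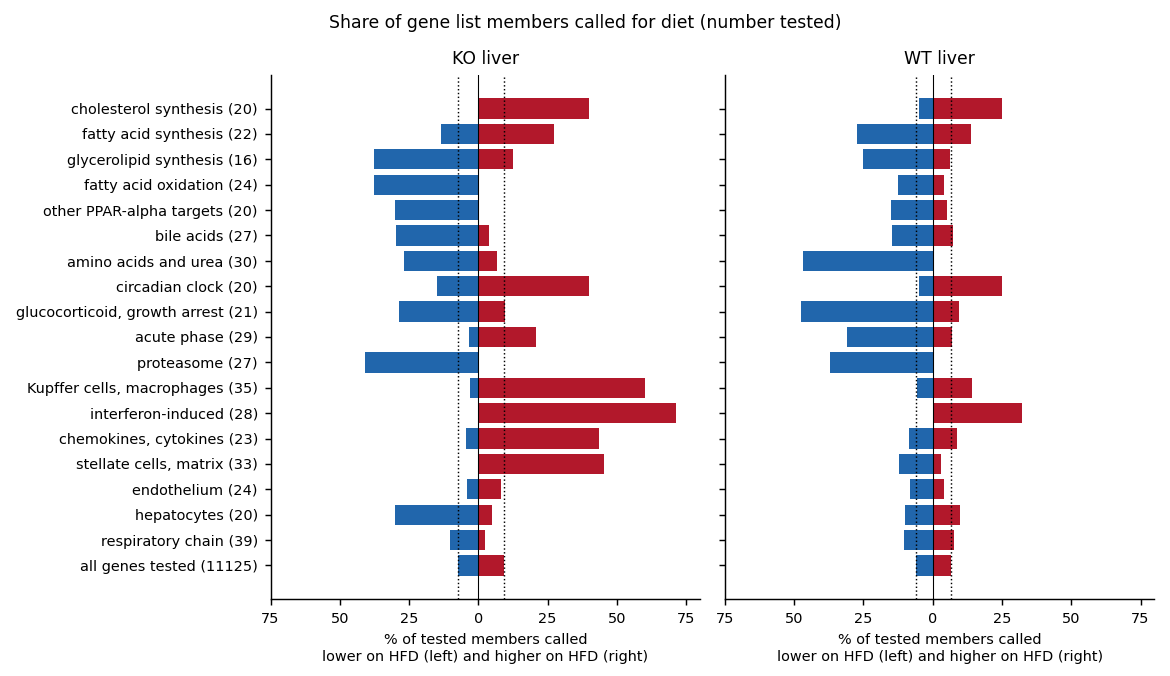
Share of the tested members of each gene list called higher (right, red) or lower (left, blue) on HFD, in percent, in KO liver and in WT liver, with the number tested in brackets and dotted lines at the shares over all genes (9.16% and 7.37% in KO, 6.47% and 6.04% in WT). Interferon-induced, macrophage and matrix genes reach the longest bars to the right in KO liver (20 of 28, 21 of 35 and 15 of 33), and proteasome genes the longest to the left.

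Whether a diet effect was larger in one genotype was tested directly for every gene. The diet effect differed between KO and WT liver for 110 genes (0.989%), 69 (0.620%) higher in KO and 41 (0.369%) lower. Of these, 79 were called for diet in KO liver and 58 in WT liver, 27 in both. Of the 69 positive differences, 52 had a called rise in KO liver, and of the 41 negative ones 26 had a called fall. The lists with the most such genes were acute phase (5 of 29) and stellate or matrix genes (4 of 33), against 2 of 28 interferon-induced and 1 of 35 macrophage genes, so most calls for these groups in KO liver were not accompanied by a called difference from WT. Leaving out 1 of the 12 liver arrays gave 35 to 120 calls.

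Group levels on both diets differed in several of these genes. Atp10d, a lipid flippase, was 114, 153 and 230 on HFD and 46.3, 37.1 and 36.5 on ND in KO liver, and 47.9, 48.0 and 37.9 on HFD and 85.8, 320 and 185 on ND in WT liver (difference between the effects 3.96 ± 0.53, adjusted p = 0.009). For Atp10d and Lcn2 the KO HFD arrays overlapped those of WT ND liver and the KO ND arrays those of WT HFD liver, whereas for Orm2 the KO HFD arrays lay below those of WT ND liver. For Lgals1 both KO groups lay above both WT groups, and the difference between the effects was 2.19 ± 0.34 (adjusted p = 0.012). Slco1a1, a male-biased organic anion transporter, was 707, 1506 and 854 on HFD and 1934, 1477 and 1730 on ND in KO liver, and 2796, 2689 and 2339 against 1448, 968 and 1319 in WT liver (-1.90 ± 0.33, adjusted p = 0.0197). Its KO diets overlapped through mouse 428, and the difference was not called without mouse 429, 718 or 720 (adjusted p 0.0516 to 0.0570). Asic5 fell in both genotypes, further in KO (-1.92 ± 0.31, adjusted p = 0.0137), and its signal on HFD was about the same in KO (81.3 to 115) and WT (73.9 to 114).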

How the data were processed

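Total RNA of liver was hybridised to Affymetrix mouse arrays, 1 per mouse. The deposited values were linear signal intensity, made by the authors with MAS5 per the submitters' processing notes, with the MAS5 version not given in the sources used here. On every array the mean after trimming 2% from each end was 100.03 to 100.05. Of 45101 probe sets, 64 were controls, 34945 named 1 gene symbol in the platform annotation, 932 several and 9160 none. Symbols were updated through a gene table of GRCm38.p6.

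Intensities were floored at their 10th percentile (1.1) and log2-transformed. The brightest single-symbol probe set stood for each of 18193 genes, and 11125 genes whose mean reached the level of the median probe set (12.95) were tested. The 12 liver arrays in 4 groups of 3 were fitted with limma 3.58.1 in R 4.3.3 (lmFit, eBayes, trended variance, residual degrees of freedom 8), with contrasts for diet in KO, diet in WT and their difference, and Benjamini-Hochberg adjustment over all genes at 0.05. The p-values measure the spread between these mice. In simulated data for the KO comparison with 11179 genes, 67 genes were changed 1.5-fold, 67 were changed 2-fold and 66 were changed 4-fold. The fit recovered 22.4%, 59.7% and 86.4% of them, and 3.45% of its 116 calls were false. The real KO comparison gave 1839 calls, a far larger number. These rates therefore describe the simulation only, and whether they hold for the real arrays was not tested.

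Named genes were the 12 largest rises and 12 largest falls measured on both diets, the 4 largest of each dim on one diet (all called and without overlap between diets), in every list the 5 or fewer members with the smallest p, and the 6 largest called differences between genotypes in each direction, with or without overlap. Any other gene is said to be named after its values were seen. The comparison and the gene lists were chosen with earlier results of these data known. The alternatives tried were to average probe sets or test each singly, to drop the filter, the floor or the trend, quantile normalization, a pseudocount of 16, only the arrays compared, and leaving out each array.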

Additional observations from a re-analysis of the deposited data

Results flagged for a closer look

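The effect of HFD against ND on liver differed between KO and WT mice, by the test of that difference itself (limma interaction, adjusted p under 0.05), for the following named genes. Each value is the log2 diet difference in KO minus that in WT, with 3 mice in each of the 4 groups.

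Among acute phase genes the differences were Orm2 (6.19), Saa2 (5.98), Lcn2 (4.22) and Saa1 (3.55), the last named after its values were seen. Genes of matrix, cytoskeleton and lectins gave Col1a2 (2.27), Lgals1 (2.19), Col6a3 (1.61) and Vim (1.60), and immunoproteasome and leukocyte genes gave Psmb9 (1.75), Cd52 (1.26), Psmb8 (1.25) and Ctss (0.96). Genes of lipid droplets, lipid synthesis or transport and PPARα targets gave Cidea (7.57), Atp10d (3.96), Cidec (3.44), Mogat1 (3.30), Angptl4 (-1.16) and Cyp4a31 (-1.61). Stress-responsive genes gave Btg2 (3.23), Klf6 (1.55) and Stip1 (-1.01). Steroid, drug and glutathione metabolism or transport genes gave Gstt3 (1.30), Gstm5 (0.97), Ces2a (-1.0), Slco1a1 (-1.90), Adh6-ps1 (-2.21) and Hsd3b5 (-4.06). The remaining genes were Ly6d (4.54), Inhbc (-1.33), Gprin3 (-1.87), Asic5 (-1.92) and BC024139 (-1.98).

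Of the 32 genes, 13 were called in every fit that left out 1 of the 12 liver arrays and 19 were not called in at least 1, and 8 were called in every fit of every setting. The Cidea value depends on the floor under low signals, since 3 of the 4 groups were dim. Cidea reached the level set for testing only through the KO HFD arrays, and was tested in 9 of the 12 fits that left out 1 array. The cause of these differences was not tested.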

How the results depend on the processing

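Of 206 named genes called for diet in KO liver, 116 were called under every alternative, 88 were lost under at least 1, and 73 of these were lost in at least 1 fit without 1 KO array. Of 55 named genes not called, 16 were called under some alternative. When probe sets were averaged, the direction reversed for Apob (0.0519), Cox8a (0.28), Cyp27a1 (0.14), Idh3a (0.37), Mgst3 (-0.0894) and Tapbp (-0.0864), and with only the arrays compared for Masp2 (0.62), where the cause was not tested.

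Testing every probe set on its own, with more tests, gave 3240 calls in KO liver (1794 lower) and 2462 in WT liver (1093 higher, 1369 lower). With the mean of probe sets, 582 genes were higher in KO liver, 846 were called in WT liver (348 higher), and 52 differed between genotypes (31 higher, 21 lower). Using only the arrays compared gave 622 in WT liver (302 higher, 320 lower). Without the variance trend, 453 were higher in WT liver and 30 differed between genotypes (21 higher, 9 lower). Without the filter, 57 differed (36 higher, 21 lower).

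Leaving out 1 array gave 1128 to 1305 calls in KO liver (609 to 727 higher, 499 to 592 lower), 672 to 1388 in WT liver (309 to 672 higher, 363 to 716 lower), and 35 to 120 differences between genotypes (22 to 77 higher, 10 to 46 lower). No paired analysis was possible because the groups compared share no mouse numbers. With 3 mice a group, the number of arrays limits the precision, and dim probe sets carry a bound only.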
